A study of Mus musculus with 9 samples.

Results

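The flavin-containing monooxygenase genes of mouse liver were followed across 3 states of the gut: germ-free, germ-free with short-chain fatty acids, and colonised. The members, Fmo1, Fmo2, Fmo4 and Fmo5, were found by gene symbol and are 4 of the 20325 genes listed in each library. All 4 were among the 12037 genes that passed the filter on low counts, so no member was lost to it.

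Polyadenylated RNA of whole livers from male C57BL/6J mice on chow was sequenced, with 3 livers in each of 3 groups. GF mice were germ-free and had no supplement. GF+SCFA mice were germ-free and received acetate (67.5 mM), propionate (25.9 mM) and butyrate (40 mM) in their drinking water. ConvD mice began as germ-free animals and were given, by gavage, cecal contents of donors raised conventionally. The age labels disagree: by one the mice were 14 weeks old, and by another they were gavaged at 15 weeks of age and dissected, after 4 weeks with the microbiota, at an age of 19 weeks. Mice shared cages by colonisation status, so cage and group cannot be told apart. The labels call the livers biological replicates without naming the animals, and a p-value here reflects only how far these 9 samples differ.

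Flavin-containing monooxygenases sit in the endoplasmic reticulum membrane, bind FAD, take electrons from NADPH and insert an oxygen atom into nitrogen or sulfur atoms of amines, drugs and nutrients. In liver the family is best known for turning trimethylamine, which gut bacteria release from choline and carnitine, into trimethylamine N-oxide. FMO1 can carry out that reaction. FMO5 accepts few classical substrates of the family and can act as a Baeyer-Villiger oxygenase, so a heading of trimethylamine oxidation describes only some of the 4 genes.

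Of the other Fmo genes, Fmo6 and Fmo9 were listed at 0 in all 9 libraries, where a count of 0 allows up to 3 counts per library. Libraries held totals of 18193071 to 21627696 expected counts.

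Per length, Fmo5 was the most abundant member in all 9 livers. Its TPM (the length-normalised transcript level computed by the authors) ranked between 244 and 553 among the 20325 genes. Fmo1, which oxidises many tertiary amines and can convert hypotaurine to taurine, ranked between 773 and 941. Fmo2, best known as the lung enzyme, ranked between 4795 and 8521.5, and Fmo4, a low-abundance member with few known substrates, between 5840.5 and 8534. Summed over the members, the level was 460 ± 71.5 TPM in GF, 576 ± 26.9 TPM in GF+SCFA and 344 ± 27.8 TPM in ConvD livers (SD, n = 3 each). In GF livers Fmo5 supplied 71.5% ± 0.54 of this sum and Fmo1 supplied 26.1% ± 0.077. Fmo2 and Fmo4 supplied 1.59% ± 0.52 and 0.81% ± 0.041.

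Fmo4, Fmo1 and Fmo2 lie in that order in a cluster on chromosome 1, whereas Fmo5 lies alone on chromosome 3. The sequence before a RefSeq start site is printed for Fmo4 and Fmo2, because these cluster neighbours lay on opposite sides of the germ-free level in colonised livers. It is also printed for Fmo5, the member with the largest amount of mRNA. The promoter table holds 3 of the 4 members, Fmo2 with more than a single start. The bases come from RefSeq on build GRCm38.p6 and run 5′ to 3′ on the gene's strand. They stop before the first annotated exon met within the 250 bases upstream of the RefSeq start. The printed Fmo4 stretch lies inside the gene as annotated in GENCODE M21, whose 5′ end is further upstream. Capitals mark a match of TTGCNNAA, the letters of a C/EBP site.
Fmo4, chr1:162812654-162812799, minus strand: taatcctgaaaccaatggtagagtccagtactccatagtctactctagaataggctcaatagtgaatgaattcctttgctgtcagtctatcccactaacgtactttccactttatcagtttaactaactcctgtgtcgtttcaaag
Fmo2, chr1:162898759-162899008, minus strand: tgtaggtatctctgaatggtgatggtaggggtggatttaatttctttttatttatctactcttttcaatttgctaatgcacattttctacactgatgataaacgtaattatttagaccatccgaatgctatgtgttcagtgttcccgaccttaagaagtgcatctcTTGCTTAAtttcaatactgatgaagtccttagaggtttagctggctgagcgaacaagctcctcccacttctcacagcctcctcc
Fmo5, chr3:97628769-97628803, plus strand: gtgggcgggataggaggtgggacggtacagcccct

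Each full window, 250 bases before to 50 after the RefSeq start, was searched on both strands for 8 sets of letters. These were AGGTCA (nuclear receptors), GCGTG (aryl hydrocarbon receptor), AGAACA (glucocorticoid receptor), TGTTTAC (forkhead), CACGTG (the clock's E-box), TTATGTAA (the clock's D-box), TTGCNNAA (C/EBP) and TGACNNNGC (antioxidant response). In the printed Fmo2 stretch, TTGCTTAA lay 84 to 77 bases before the start, and 10.8% of 32851 promoter windows of the same length hold TTGCNNAA. The Fmo4 window held AGGTCA, 75 to 70 bases before the RefSeq start, within sequence annotated as exon and so not printed, and 16.3% of windows hold it. The window of another Fmo2 start held the nuclear receptor, glucocorticoid receptor, forkhead and C/EBP letters, which occur in 16.3%, 19%, 3.65% and 10.8% of windows. The Fmo5 window had none of the 8, but only 35 of its 250 bases before the RefSeq start lie ahead of the first annotated exon. A match describes the letters in the window and says nothing of a factor's binding in these livers.

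The first comparison, ConvD against GF, addresses the effect of a whole microbiota on the liver. Fmo5 fell and Fmo4 rose in colonised livers, while Fmo2 and Fmo1 did not pass the test. With edgeR's quasi-likelihood test and Benjamini-Hochberg adjustment over all 12037 genes, 2 of the 4 members passed an adjusted p of 0.05, beside 12.8% of all genes tested. That is 1 member higher, beside 5.93% of all genes, and 1 lower, beside 6.9%. The ranges of CPM (read counts expressed relative to the TMM-scaled library) of the groups did not overlap for 3 of the 4 members, beside 31.6% of all genes tested. Of these members 1 was higher (15.7% of all genes) and 2 were lower (15.9%). The median log2 fold change over all genes was 0.00.

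Fmo5 was at 321, 284 and 382 TPM in the GF livers and at 228, 201 and 242 TPM in the ConvD livers. Every ConvD liver lay below every GF liver. In CPM it went from 1114 ± 98.2 to 727 ± 84.8 (SD, n = 3 each), 1.53-fold lower. The log2 fold change was -0.62 (SE 0.099, 95% interval -0.83 to -0.40, adjusted p = 0.00182). Of all genes tested, 8.40% had a larger fold change in either direction, and by p Fmo5 ranked 148. The gene's transcripts are long, and 25 of their 5148 words of 50 bases recur in transcripts of other genes, 0.486%.

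Fmo4 moved the other way, from 3.52, 3.41 and 4.23 TPM in GF to 8.25, 6.33 and 4.75 TPM in ConvD livers. The groups did not overlap, and ConvD replicate 3 was closest to the GF livers. In CPM it rose from 4.20 ± 0.23 to 6.90 ± 1.54 (SD, n = 3 each). This was 1.64-fold, a log2 fold change of 0.72 (SE 0.17, 95% interval 0.36 to 1.08, adjusted p = 0.0144). These values rest on 75 to 174 expected counts per library, the fewest of the 4 genes. The call was lost without GF replicate 1 (0.70, adjusted p = 0.0509) and without ConvD replicate 1 (0.55, adjusted p = 0.0666).

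Fmo2 was at 5.10, 5.85 and 11.6 TPM in the GF livers and at 4.45, 4.30 and 2.81 TPM in the ConvD livers. All ConvD values lay below all GF values, and GF replicate 3 was far above the other GF livers. In CPM the means were 15.9 ± 6.45 and 7.89 ± 1.59, and the log2 fold change of -1.01 (SE 0.31, 95% interval -1.75 to -0.28) missed the threshold (adjusted p = 0.0773). Without GF replicate 3 the value was -0.63 (adjusted p = 0.0664), and DESeq2 on the same counts called it (adjusted p = 0.000823).

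Fmo1 was at 116, 104 and 140.01 TPM in GF and at 115, 100.4 and 115 TPM in ConvD livers, and the groups overlapped. In CPM the means were 177 ± 16.03 and 157 ± 13.4, with a log2 fold change of -0.18 (95% interval -0.36 to -0.0064, adjusted p = 0.160). No word of 50 bases in Fmo1, Fmo2 or Fmo4 transcripts recurs exactly in another gene. No member shares exon positions with another gene in the GENCODE M21 annotation. Both searches, and that of Fmo5 words above, used this annotation and not the build on which the reads were counted. Expected counts were not whole numbers in 100% of libraries for Fmo1 and Fmo5, 55.6% for Fmo2 and 11.1% for Fmo4. How those reads were divided among transcripts was not tested.

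**Figure D1:**
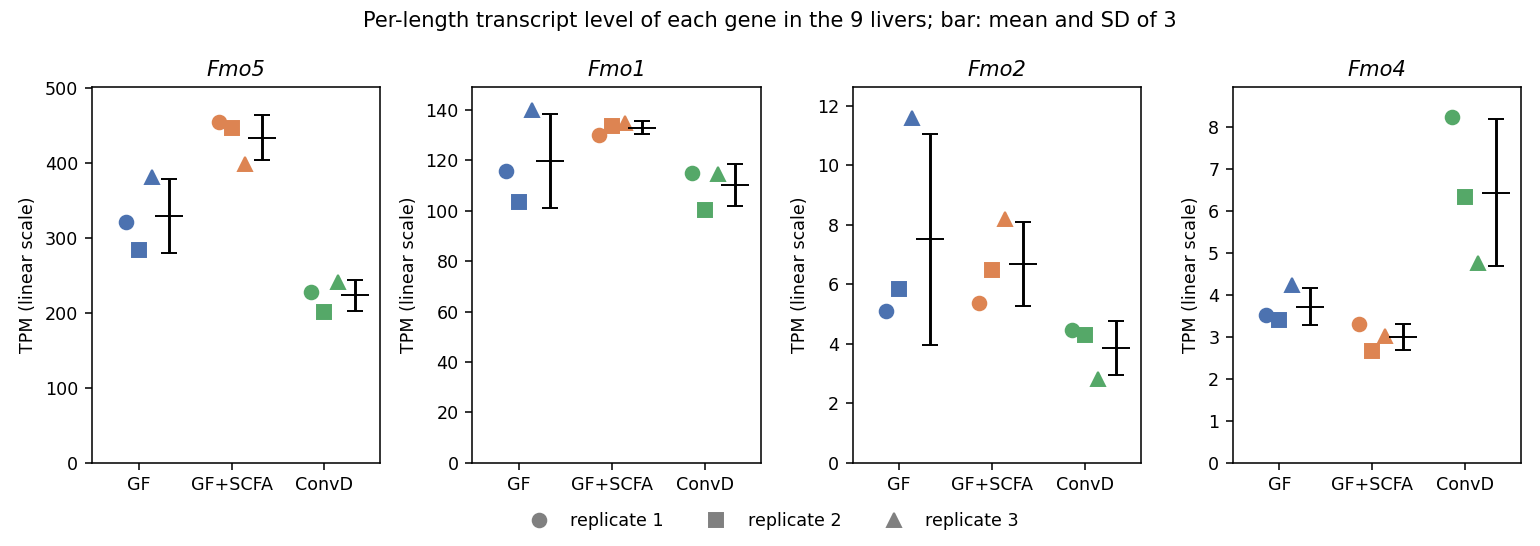
Length-normalised level (TPM, linear axis from 0) of Fmo5, Fmo1, Fmo2 and Fmo4 in each of the 9 livers, with symbols for replicates and black bars for the mean and SD of 3 livers. Fmo5 in ConvD livers lies at 201 to 242 TPM, below all GF livers at 284 to 382 TPM, and Fmo4 in ConvD livers lies at 4.75 to 8.25 TPM, above all GF livers at 3.41 to 4.23 TPM.

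In whole tissue, fewer cells of a type and less RNA per cell cannot be told apart. The hepatocyte markers, which include albumin, apolipoproteins and clotting proteins, summed to 137464 to 158029 CPM in GF and 127040 to 154033 CPM in ConvD livers, ranges that overlap. Of the 11 hepatocyte genes 1 rose (Ttr) and 3 fell (Cyp2e1, Cps1, Ahsg), with a median log2 fold change of -0.18. The background for each count in this paragraph is the 5.93% of all genes that were higher and the 6.9% that were lower. Kupffer cell and macrophage markers rose in 8 of 14 genes, with sums of 440 to 533 CPM in GF and 598 to 871 CPM in ConvD. Endothelial markers summed to 307 to 326 CPM in GF and 302 to 346 CPM in ConvD, and stellate cell and fibroblast markers to 481 to 521 and 519 to 543 CPM. Erythroid markers summed to 264 to 367 CPM in GF and 296 to 1001 CPM in ConvD, ranges that overlap. Of these 5 tested genes 0 were called by edgeR's quasi-likelihood test and 2 were higher with DESeq2. Neutrophil and monocyte markers rose in 4 of 7 tested genes and summed to 6.63 to 9.67 CPM in GF and 14.6 to 19.6 CPM in ConvD. Some of these calls rest on GF values near the floor of 3 counts, 0.16 CPM: Ltf was at 0 and S100a8 at 0.21 ± 0.061 CPM. Both genes passed the filter on low counts only through the ConvD livers, so they could only be higher there. DESeq2 called 2 of the 7. Lymphocyte markers rose in 1 of 8 tested genes, with sums of 5.96 to 7.17 and 10.04 to 10.6 CPM. No marker of these lists was at 0 in every library. The part of these shifts in the Fmo values was not tested.

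The second comparison, GF+SCFA against GF, asks whether the fermentation acids alone move liver transcripts in the absence of bacteria. None of the 4 members passed the adjusted threshold by edgeR's quasi-likelihood test, beside 0.0415% of all genes tested (5 of 12037). At an unadjusted p under 0.05 the members were Fmo5 and Fmo1, against 12.3% of all genes. CPM ranges did not overlap for 3 members, beside 17.9% of all genes: Fmo5 and Fmo1 were higher (9.06% of all genes) and Fmo4 lower (8.86%). Stellate cell and fibroblast markers summed to 422 to 468 CPM in GF+SCFA and 481 to 521 CPM in GF livers, with 1 of 19 genes lower (Col3a1). Biliary and mesothelial markers summed to 27.1 to 31.8 and 45.6 to 52.1 CPM, with no gene of 8 called by edgeR's quasi-likelihood test, 4 lower at an unadjusted p under 0.05 and 1 lower with DESeq2. Most of the biliary and mesothelial sum was a single gene, Spp1, at 24.0 ± 2.03 CPM in GF+SCFA and 40.8 ± 3.38 CPM in GF livers. Neither the stellate nor the biliary sum overlapped between the groups, and their part in the Fmo values was not tested.

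Fmo5 in the GF+SCFA livers was at 455, 447 and 399 TPM, against 284 to 382 TPM in the GF livers named above. Each supplemented liver lay above each GF liver. In CPM the mean was 1498 ± 104 in GF+SCFA, 1.34-fold that of GF, with a log2 fold change of 0.43 (SE 0.099, 95% interval 0.22 to 0.64, adjusted p = 0.142). By p it ranked 55 of all genes. DESeq2, which called 82 genes in this comparison, called Fmo5 (0.43, adjusted p = 0.0147), and the quasi-likelihood test called it without GF replicate 3 (0.49, adjusted p = 0.0342), where it called 173 genes.

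Fmo1 was at 130.1, 134 and 135 TPM in GF+SCFA livers, within the GF range in TPM. In CPM, scaled by library rather than by length and all transcripts, its 196 to 206 lay just above the GF values of 162 to 194. The log2 fold change was 0.18 (95% interval 0.0035 to 0.35, adjusted p = 0.398). Fmo4 was at 3.30, 2.67 and 3.01 TPM, each below the lowest GF liver, with a log2 fold change of -0.29 (95% interval -0.68 to 0.098, adjusted p = 0.551). Fmo2 was at 5.38, 6.48 and 8.18 TPM, inside the GF range, with a log2 fold change of -0.13 (95% interval -0.83 to 0.57, adjusted p = 0.898). The sign of the Fmo2 value turned without GF replicate 3 (0.25), and its interval allows a change of any direction.

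The third comparison sets ConvD against GF+SCFA, that is, a whole microbiota against the acids alone. It shares its libraries with the other comparisons, so its values are not independent of theirs. Fmo5 and Fmo1 were lower and Fmo4 higher in ConvD livers, and these 3 of the 4 members passed by edgeR's quasi-likelihood test, beside 18.4% of all genes tested. Of all genes 8.97% were lower and 9.44% higher. All 4 members had CPM ranges that did not overlap, 3 lower and 1 higher, beside 38% of all genes (18.9% lower, 19% higher). In this comparison 8 of 19 stellate cell and fibroblast markers and 3 of 14 Kupffer cell and macrophage markers were higher in ConvD livers, and 5 of 7 neutrophil and monocyte markers. DESeq2 called 7, 6 and 4 of these lists higher. Among the neutrophil genes, Ltf (0 CPM in GF+SCFA) and S100a8 (0.13 ± 0.089 CPM) passed the filter only through the ConvD livers, so they could only be higher there. Their part in the Fmo values was not tested.

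Fmo5 was 2.06-fold lower in ConvD than in GF+SCFA livers, a log2 fold change of -1.04 (SE 0.10, adjusted p = 2.97e-05). It ranked 21 by p, and 2.98% of all genes had a larger fold change. Fmo4 was 2.01-fold higher, a log2 fold change of 1.01 (SE 0.17, adjusted p = 0.0016). Fmo1 was 1.28-fold lower, a log2 fold change of -0.36 (SE 0.082, adjusted p = 0.00838). This last call was made on counts only: limma on log2(TPM + 1) gave -0.27 (adjusted p = 0.0947). Fmo2 had a log2 fold change of -0.88 (SE 0.32, adjusted p = 0.0977), which passed with DESeq2 (adjusted p = 0.00361), in a fit of these 2 groups alone (adjusted p = 0.0108) and without GF replicate 3 (adjusted p = 0.00637).

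**Figure D2:**
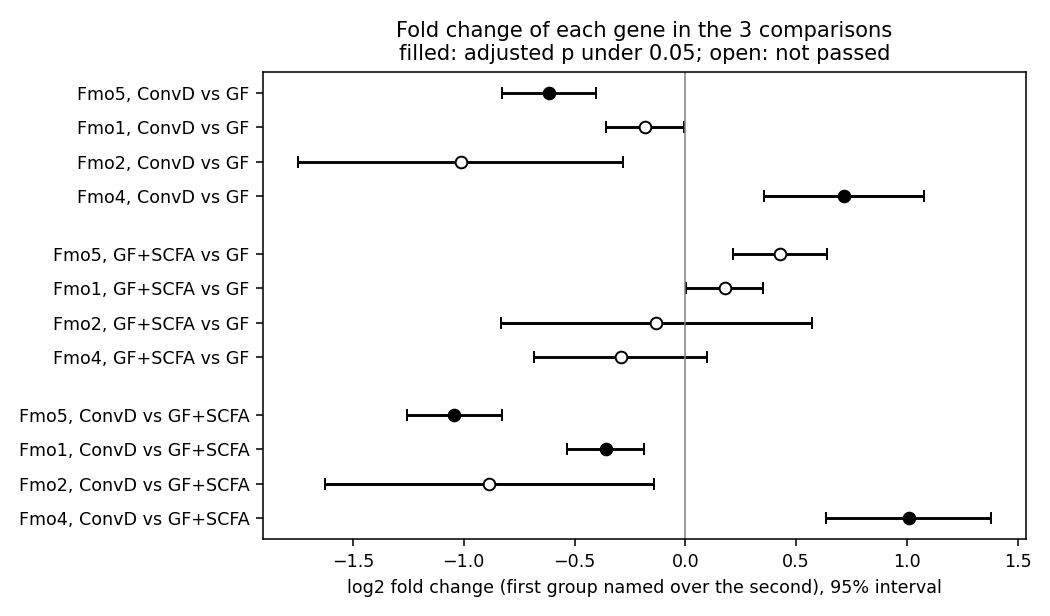
Log2 fold change of each gene in the 3 comparisons (points) with its 95% interval (bars) from edgeR's quasi-likelihood fit, filled where the adjusted p is under 0.05. Fmo5 is filled at -0.62 and -1.04 and Fmo4 at 0.72 and 1.01 in the comparisons that involve ConvD, and no point is filled for GF+SCFA against GF.

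The make-up of the family is given within each liver as well as its sum. Within each liver the ratio of Fmo5 to Fmo1 TPM was 2.77, 2.74 and 2.73 in the GF livers. It was 3.501, 3.34 and 2.96 in the GF+SCFA livers and 1.98, 2.00 and 2.11 in the ConvD livers. The 3 groups were apart, and the GF livers, whose Fmo5 level varied by a coefficient of variation of 15.0%, held this ratio within 2.75 ± 0.025 (SD, n = 3). Fmo5 supplied 75.2% ± 1.80 of the summed TPM in GF+SCFA and 65.0% ± 1.254 in ConvD, while Fmo1 supplied 23.1% ± 1.48 and 32.0% ± 0.44. No test is given for these shares, which are made of the same values as the fold changes.

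The 2 rarer members stood in a different order after colonisation. Per length, Fmo2 lay above Fmo4 in every GF liver (5.10 to 11.6 against 3.41 to 4.23 TPM) and in every GF+SCFA liver (5.38 to 8.18 against 2.67 to 3.30 TPM). In the ConvD livers Fmo4 lay above Fmo2 in each, at 4.75 to 8.25 against 2.81 to 4.45 TPM. The ratio of Fmo5 to Fmo4 TPM was 91.1, 83.2 and 90.2 in GF, 138, 167 and 133 in GF+SCFA, and 27.6, 31.8 and 50.9 in ConvD livers. Above them the order Fmo5 then Fmo1 was the same in every liver.

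**Figure D3:**
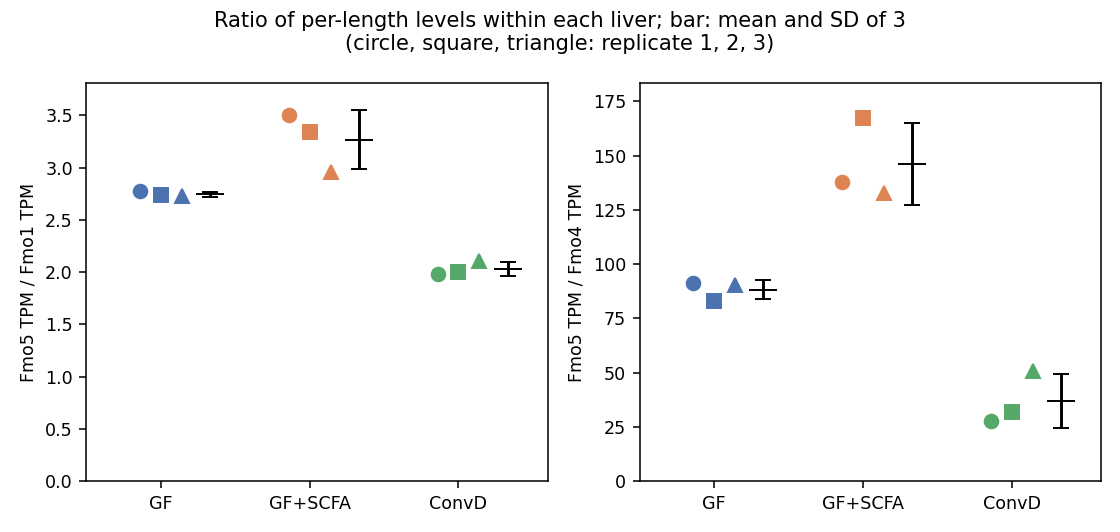
Ratio of Fmo5 to Fmo1 TPM (left) and of Fmo5 to Fmo4 TPM (right) within each liver, on linear axes from 0, with black bars for the mean and SD of 3 livers. The ConvD livers lie lowest in both panels, at 1.98 to 2.11 and 27.6 to 50.9, and the GF+SCFA livers highest, at 2.96 to 3.501 and 133 to 167.

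Genes around the reaction were read next, in lists of choline and carnitine metabolism, cofactors, other amine enzymes, transport, taurine and reported regulators. In each sentence on ConvD against GF, the background is the 5.93% of all genes that were higher, the 6.9% that were lower, and a median log2 fold change of 0.00. In GF+SCFA against GF, 0 genes passed in any of these 7 lists by edgeR's quasi-likelihood test, and each list held 1 or 2 genes at an unadjusted p under 0.05. Over all genes tested, 0.0415% passed and 12.3% were at that unadjusted p. DESeq2 called 1 of the 6 taurine genes and 1 of the 21 regulators, both lower.

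The liver's choline and betaine metabolism uses choline, from which gut bacteria release trimethylamine, and these genes do not measure the supply to bacteria. In ConvD against GF livers 3 of 20 genes were higher and 3 lower, with a median log2 fold change of -0.01. Slc44a3, a choline transporter-like protein, rose 1.79-fold from 5.14 ± 0.74 to 9.20 ± 1.37 CPM (adjusted p = 0.00309). Pld1, a phospholipase that frees choline from phosphatidylcholine, rose 1.47-fold (adjusted p = 0.00885), and the choline kinase Chkb rose 1.23-fold (adjusted p = 0.0268). The mitochondrial enzymes that strip methyl groups from betaine's products fell. Dmgdh, dimethylglycine dehydrogenase, had 704 ± 49.0 CPM in germ-free and 533 ± 44.7 CPM in colonised livers (log2 fold change -0.40, adjusted p = 0.00728), and Sardh, sarcosine dehydrogenase, from 1011 ± 79.5 to 818 ± 43.7 CPM (-0.31, adjusted p = 0.0294). Pcyt1a, of phosphatidylcholine synthesis, was the other gene that fell.

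Bhmt, which uses betaine to remethylate homocysteine, was at 3667 ± 378 CPM in GF, 4643 ± 486 CPM in GF+SCFA and 3229 ± 438 CPM in ConvD livers. It passed in ConvD against GF+SCFA (log2 fold change -0.52, adjusted p = 0.0080) but not in ConvD against GF (-0.18, adjusted p = 0.328). In ConvD against GF+SCFA 2 of the 20 genes were higher and 5 lower, Bhmt2, Dmgdh, Sardh and Etnk2 being the other lower ones. Of all genes 9.44% were higher and 8.97% lower in that comparison, so the higher count is near the background. Carnitine, the second dietary source of trimethylamine, had 0 of 7 genes called in any comparison by edgeR's quasi-likelihood test. At an unadjusted p under 0.05 by that test, 1 of the 7 was higher in ConvD against GF. In ConvD against GF+SCFA 1 was higher and 2 were lower at that threshold. The share of all genes at the unadjusted threshold is not given for these comparisons, so the counts have no background. DESeq2 called 0 in ConvD against GF and 1, lower, in ConvD against GF+SCFA. Among the carnitine genes, Slc16a9 had the smallest adjusted p in ConvD against GF. This carnitine exporter was at 2.51 ± 0.44 and 3.72 ± 0.45 CPM (adjusted p = 0.0760).

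Of the genes that supply FAD and NADPH, the cofactors of all members, 2 of 13 rose in ConvD against GF and the other 11 did not pass, with a median of 0.12. Pgd, the NADPH-producing dehydrogenase of the pentose phosphate pathway, rose 1.55-fold from 27.7 ± 2.11 to 42.9 ± 6.09 CPM (adjusted p = 0.00155). Tkt, the transketolase of that pathway, rose 1.31-fold (adjusted p = 0.00736). G6pdx, its first enzyme, was at 3.68 ± 0.18 and 5.53 ± 1.39 CPM and did not pass (adjusted p = 0.0637).

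Among other amine oxidases and N-reductases, 2 of 12 rose and 1 fell in ConvD against GF (median 0.13). Por, the NADPH-cytochrome P450 reductase, went from 646 ± 70.1 to 329 ± 21.95 CPM, with a log2 fold change of -0.97 (adjusted p = 5.05e-05). Aox1, an aldehyde oxidase, rose 1.47-fold (adjusted p = 0.0267), and Cyb5b, the outer mitochondrial cytochrome b5 of the amidoxime-reducing system, 1.22-fold (adjusted p = 0.0280). Of the organic cation transporters 1 of 7 fell and the other 6 did not pass (median -0.14): Abcb1b, an efflux pump of low level, went from 2.32 ± 0.34 to 1.10 ± 0.17 CPM (adjusted p = 0.00662).

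Taurine synthesis was listed because FMO1 can act on hypotaurine. Here 1 of 6 genes rose in ConvD against GF and the other 5 did not pass (median 0.06). Csad, which makes hypotaurine from cysteine sulfinate, was at 55.5 to 62.4 CPM in the GF livers, 33.1 to 43.1 CPM in the GF+SCFA livers and 133 to 176 CPM in the ConvD livers. The 3 groups did not overlap. It rose 2.51-fold in ConvD against GF (adjusted p = 0.000112) and was 3.84-fold higher in ConvD than in GF+SCFA livers (adjusted p = 7.69e-06). Fmo1, at the next step, did not pass in ConvD against GF.

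Regulators reported for Fmo genes had 2 of 21 members higher and 8 lower in ConvD against GF, with a median log2 fold change of -0.16. Foxo1, the insulin-restrained transcription factor, had 46.8 ± 5.08 CPM in germ-free and 28.0 ± 1.60 CPM in colonised livers (log2 fold change -0.74, adjusted p = 0.00018). Nr1i3, the xenobiotic receptor CAR, went from 107 ± 13.9 to 70.2 ± 6.75 CPM (-0.60, adjusted p = 0.00252), and Nr1i2, the pregnane X receptor, from 75.6 ± 11.7 to 59.4 ± 5.84 CPM (-0.35, adjusted p = 0.0422). Ahr, the aryl hydrocarbon receptor, fell by 0.63 on the log2 scale (adjusted p = 0.0181), and its partner Arnt fell by 0.33 (adjusted p = 0.0462).

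Esr1, the estrogen receptor, fell by 1.00 on the log2 scale (adjusted p = 0.0145), and Eif2ak3, the stress kinase PERK, by 0.94 (adjusted p = 0.00867). The insulin receptor gene Insr was the other of the 8. Cebpa, a hepatocyte transcription factor, rose 1.29-fold from 191 ± 20.8 to 247 ± 22.6 CPM (adjusted p = 0.0168), and Foxa2, a forkhead factor of hepatocytes, rose 1.80-fold (adjusted p = 0.0211). In ConvD against GF+SCFA, 3 of the 21 were higher and 9 lower, beside 9.44% and 8.97% of all genes. These are mRNA levels and not measures of the factors' activity.

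**Figure D4:**
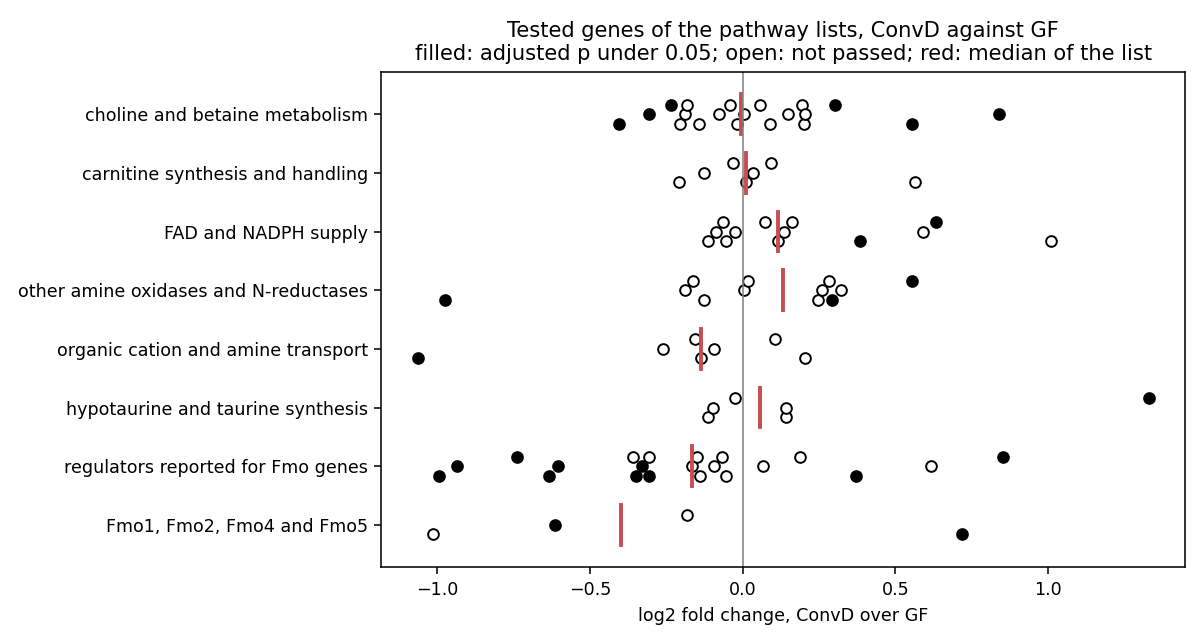
Log2 fold change of ConvD over GF for each tested gene of 7 pathway lists and for the 4 Fmo genes, filled where the adjusted p is under 0.05 (edgeR's quasi-likelihood test), with a red line at each list's median. The regulators hold 8 filled points below 0 and 2 above, carnitine genes hold none, and Csad stands alone at 1.33 among the taurine genes.

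For each member the 3 genes with the most similar profile were picked as those with the highest Pearson correlation of log2 CPM over the 9 livers, among 9896 tested genes with a mean of at least 50 expected counts. The livers share their groups and libraries, so these are descriptions and carry no test. Nearest to Fmo5 were Acot1, a fatty acid thioesterase (0.98), Hdhd2 (0.98) and Tsc22d3, the glucocorticoid-induced leucine zipper GILZ (0.98). Acot1 had means of 27.8, 42.5 and 16.3 CPM in GF, GF+SCFA and ConvD livers, and Tsc22d3 of 177, 230 and 111 CPM. Acot1 (log2 fold change -0.78, adjusted p = 0.0186) and Tsc22d3 (-0.68, adjusted p = 0.00724) fell in ConvD against GF. Acot1 has close relatives in the genome, and how its reads were divided among them was not tested.

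Nearest to Fmo1 were Glt1d1 (0.98), Nemf (0.97) and Map3k13 (0.97), none of which passed in ConvD against GF. Nearest to Fmo4 were Nudt18, a nucleotide hydrolase (0.99), Birc3, an inhibitor of apoptosis (0.97), and Dgkz, a diacylglycerol kinase (0.97). Nudt18 (log2 fold change 0.41, adjusted p = 0.0405) and Birc3 (0.44, adjusted p = 0.0151) rose in ConvD against GF. Nearest to Fmo2 were Vezf1 (0.97), the fatty acid ligase Acsl4 (0.96) and BC046331 (0.96), of which Acsl4 fell from a mean of 110 to 72.5 CPM (-0.60, adjusted p = 0.00257).

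**Figure D5:**
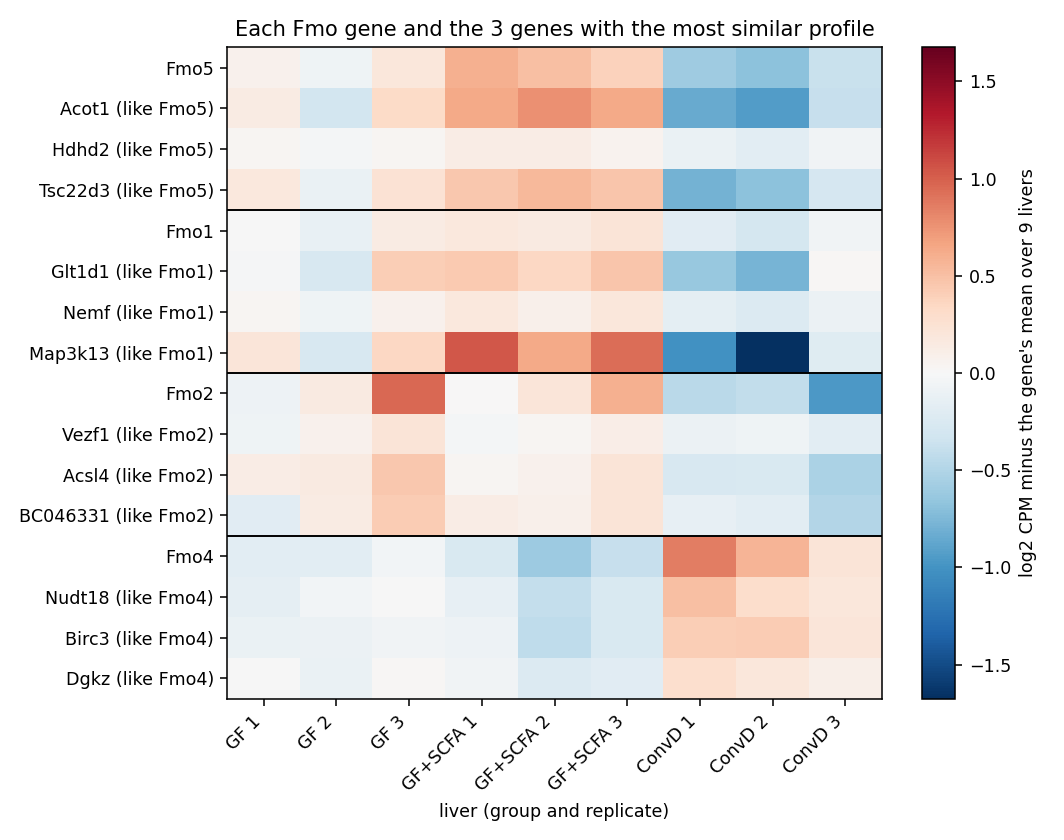
Log2 CPM minus the gene's mean over 9 livers (colour, blue below and red above the mean) for each Fmo gene and the 3 genes with the most similar profile, 1 column per liver. In the Fmo5 block the ConvD columns are blue and the GF+SCFA columns red, the Fmo4 block shows the opposite, and in the Fmo2 block GF replicate 3 is the reddest column and ConvD replicate 3 the bluest.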

How the data were processed

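Per the labels' protocols, libraries were made from polyadenylated liver RNA with a stranded kit. Alignment was with Bowtie2 (version and strand setting not given in the sources used here) and quantification with RSEM 1.2.23 on build mm9, per the submitters' processing notes. The deposited tables hold, per the file headers, estimated counts (RSEM expected counts, not normalised), TPM normalised by the authors for length and depth, and FPKM, which were not used.

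Expected counts were rounded and tested with edgeR 4.0.16 (R 4.3.3). After filterByExpr (minimum count 10) and TMM scaling, genes were fitted with a robust quasi-likelihood model of 3 groups over all 9 samples (6 residual degrees of freedom). P-values were adjusted by Benjamini-Hochberg over 12037 genes and called under 0.05. SE is that of the log2 fold change, and intervals are 95%. DESeq2 1.42.0 and limma 3.58.1 on log2(TPM + 1) were alternatives. The code was tested on simulated counts.

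Named genes were the members, other Fmo genes, up to 4 genes of each pathway list with the smallest adjusted p in ConvD against GF, genes of those lists called in the other comparisons, leading markers of the cell type lists, and the 3 most similar profiles. A few genes named by this rule are left out of the text. Insr and Pcyt1a were named after their values were seen. Members and lists were chosen with earlier results of these data known. Of 274 list entries 271 matched a gene, 6 of them by accession. Names and promoters come from RefSeq tables of another build, so no gene coordinates are printed beside those of the promoters.

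The 10 largest genes held 20.9% to 23.3% of counts, TMM factors were 0.935 to 1.06, and the biological coefficient of variation was 10.6%. Chi-square per degree of freedom between livers of a group was 11.4 to 54.5, so no library was a copy. It was 34.4 to 54.5 for pairs with GF replicate 3 or ConvD replicate 3 and at most 21.6 otherwise. Floors of 3 counts cover counting error only.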

Additional observations from a re-analysis of the deposited data

How the results depend on the processing

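Each result was recomputed under 18 alternatives. Fmo5 in ConvD against GF (-0.71 to -0.54) and against GF+SCFA (-1.14 to -0.96), and Fmo4 in ConvD against GF+SCFA (0.84 to 1.16), kept direction and call in all 18. Fmo4 in ConvD against GF ranged from 0.55 to 0.87 with a replicate left out and lost its call without GF replicate 1 or ConvD replicate 1. Fmo2 in ConvD against GF was called by DESeq2 (-1.02) and without GF replicate 1 (-1.21, adjusted p = 0.0494), with a leave-one-out range of -1.21 to -0.63. In ConvD against GF+SCFA it was -0.89 with DESeq2, -0.88 with the 2 groups alone and -1.01 to -0.71 with a replicate left out. In GF+SCFA against GF it ranged from -0.33 to 0.25, the last without GF replicate 3. Fmo5 in GF+SCFA against GF was 0.43 with DESeq2 and 0.36 to 0.49 with a replicate left out. Fmo1 in ConvD against GF+SCFA was -0.27 and not called with limma on log2(TPM + 1) (adjusted p = 0.0947), on log2(TPM + 0.1) (0.0928) and without a filter (0.137). The cause of these shifts was not tested.

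Counts of called genes in ConvD against GF (1544) were 1019, 972 and 755 with those limma settings and 849 to 1466 with a replicate left out (849, 918 and 936 without ConvD replicate 2, GF replicate 1 and ConvD replicate 1). In GF+SCFA against GF (5) they were 82 with DESeq2, 9 with library totals, 24 without a filter, 1, 1 and 2 with limma, and 0 to 173 with a replicate left out, 173 being without GF replicate 3. In ConvD against GF+SCFA (2216) they were 1383 to 2393, with 1383, 1400 and 1465 without GF+SCFA replicate 2, GF+SCFA replicate 3 and ConvD replicate 2. The share of calls that were higher in ConvD against GF was 46.2% with TMM, 66.1% with upper-quartile factors, 73.1% with library totals and 75.5% with TPM. Against GF+SCFA it was 51.3%, 66.8%, 72.4% and 77.6%. With limma on log2(TPM + 1), 2 regulators were higher and 5 lower in ConvD against GF, 2 choline genes were higher and 1 lower, and 3 female-biased genes were lower. Over all 12037 genes, 769 were higher and 250 lower with that setting. No scaling moved the median of all genes by over 0.0903 on the log2 scale.

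With the replicate number as a block the counts were 1514, 5 and 2195, and no member's call changed. Deviations of same-numbered livers from their group means correlated at -0.066 to 0.14, with 1 of 9 pairs over 0.1. These values were 0.077 to 0.14 between GF and GF+SCFA livers, -0.066 to 0.027 between GF and ConvD, and -0.054 to 0.051 between GF+SCFA and ConvD. In both other groups at once, 3 of 9 livers correlated best with their own number. Whether the numbers pair the livers cannot be told from these values. Depth limits Fmo4 most, at 60 to 174 counts.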

Other observations

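Liver genes known to be higher in females were read because the mice were all male. Of 20 listed genes 10 passed the filter on low counts. In ConvD against GF livers 7 of these 10 were lower by edgeR's quasi-likelihood test, beside 6.9% of all genes. The other 3 did not pass, and the median log2 fold change of the 10 was -1.01. With limma on log2(TPM + 1) 3 of the 10 were lower, beside 250 of 12037 genes. The summed level of all 20 listed genes was 523 to 638 CPM in GF, 557 to 604 CPM in GF+SCFA and 314 to 369 CPM in ConvD livers. Lifr, a cytokine receptor and the largest of them, went from 426 ± 64.8 to 258 ± 16.1 CPM (adjusted p = 0.000605), and Cyp2c40, a cytochrome P450 with close relatives, from 53.6 ± 20.2 to 10.96 ± 3.81 CPM (adjusted p = 0.0163). The male-biased genes had 1 of 20 higher (Mup20, 1.71-fold, adjusted p = 0.0161) and 3 lower (Cyp7b1, Slco1a1, Selenbp2). Of all genes 5.93% were higher and 6.9% lower, so the higher count is near the background.

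Genes of the hepatocyte zones were also called in ConvD against GF. Of the pericentral genes 1 of 18 was higher and 4 lower, among them Cyp2e1 (-0.41, adjusted p = 0.0164) and Slc1a2 (-0.53, adjusted p = 0.00263). Of the periportal genes 1 of 16 was higher and 4 lower, among them Pck1 (-0.88, adjusted p = 0.00018) and Tat (-1.14, adjusted p = 0.00153). Over all genes 5.93% were higher and 6.9% lower, so the higher count of each zone is near the background. The summed periportal level was 19663 to 21406 CPM in GF and 12897 to 14995 CPM in ConvD, and the pericentral level 14802 to 16517 and 12344 to 14671 CPM.

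Tested genes next to the Fmo loci were looked up after the members' values were seen. Beside the chromosome 1 cluster, Prrc2c fell (-0.34, adjusted p = 0.0294) and Gorab rose (0.59, adjusted p = 0.0468) in ConvD against GF, and 4 others did not pass. The background for both loci is the 12.8% of all genes that passed in that comparison, and the neighbours were not tested as a set. Beside Fmo5, its immediate neighbours Chd1l (0.02, adjusted p = 0.923) and Prkab2 (0.39, adjusted p = 0.334) did not pass, and of the next ones Pde4dip fell (-0.50, adjusted p = 0.00798).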
